A study of Mus musculus with 12 samples.

Results

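The resident Kupffer cell markers are 10 genes that are widely used to recognise the macrophages of the mouse liver, namely Clec4f, Timd4, Vsig4, Cd5l, Marco, Cd163, Folr2, C1qa, C1qb and Adgre1. They were taken by name from the 41743 genes listed in both deposited tables, and all 10 were measured in all 12 livers. The list was chosen with earlier results of these data known. Whole livers of female mice aged 3 to 4 months were studied in 4 groups of 3. The YAPKO group (labelled YAP1 KO, C57BL/6 strain) carried Foxa3-Cre with floxed Yap1 alleles and a floxed-stop EYFP reporter at ROSA, and was compared with WT littermates of C57BL/6 strain. The YAPKO TAZHET group (labelled YKTH, YAP1 KO TAZ Heterozygote) carried Foxa3-Cre and floxed Yap1 with 1 allele of Wwtr1, the gene for TAZ, deleted. It came from a separate floxed stock, for which no reporter is named, and was compared with WT littermates of the same mixed C57BL/6-FVB background. In both models the Foxa3 promoter drives Cre in the early foregut endoderm, from which hepatocytes and bile duct cells arise, and the livers lack functional intrahepatic bile ducts. The models therefore differ from each other in strain, floxed stock and reporter as well as in Wwtr1. These cannot be told apart in a difference between the models. The alleles of the WT littermates are given only as wild type.

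Kupffer cells are macrophages that line the liver sinusoids and take up bacteria, dying cells, lipoproteins and worn red blood cells from portal blood. They are seeded before birth from haematopoietic precursors and renew themselves locally, and in mice Clec4f and Timd4 are among the genes that separate them from other macrophages, while Adgre1, C1qa and C1qb are shared by many tissue macrophages. When resident cells are lost, blood monocytes can enter the sinusoids and take on Kupffer cell genes, of which Timd4 is known to be regained late.

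Levels were given as TPM, a measure of transcript abundance that is scaled for transcript length and sums to 1000000 in each liver, so the number of reads behind a value is unknown. Between 14442 and 15047 genes were above 0 TPM in a liver, and no 2 livers held identical values. Yap1 was lower in both models (log2 fold change −3.51 in YAPKO and −1.93 in YAPKO TAZHET), and Wwtr1 changed by 0.73 in YAPKO (adjusted p = 0.00186) and by 0.26 in YAPKO TAZHET (adjusted p = 0.0744). Mean Yap1 was 2.44 TPM in YAPKO and 9.77 TPM in YAPKO TAZHET livers, so the remaining Yap1 RNA also differed between the models. Here and below, fold changes are differences of log2(scaled TPM + 1), which understates the change of low genes, given with the standard error (SE). Scaling divided TPM by factors of 1.09 to 1.22 in YAPKO and 0.85 to 0.91 in WT (C57BL/6) livers. In the mixed background the factors were 1.07 to 1.18 in YAPKO TAZHET and 0.86 to 0.95 in WT livers. Scaled increases are therefore smaller than ratios of mean TPM as deposited. Adjusted p-values are two-sided values from limma with Benjamini-Hochberg adjustment over all genes tested, called below 0.05. In the whole liver, a change in the number of Kupffer cells and a change in the RNA of each cell cannot be told apart.

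Most of the 10 markers were higher in both models than in WT littermates, but Cd163 was lower and Timd4 was not called. In YAPKO livers 8 of the 10 were higher and 1 was lower, where 18.8% of the 11704 genes tested were called higher and 17.9% lower. In YAPKO TAZHET livers the counts were again 8 higher and 1 lower, against 19.2% and 19% of the 11741 genes tested. Those shares depend on the scaling, since on TPM without scaling 4390 genes were called higher and 834 lower in YAPKO (2202 and 2094 with scaling), and 4089 and 886 in YAPKO TAZHET (2253 and 2233 with scaling). The markers without scaling were 8 higher and 1 lower in YAPKO and 8 higher and 0 lower in YAPKO TAZHET. The median log2 fold change of the markers was 0.97 in YAPKO and 1.09 in YAPKO TAZHET, beside a median over all genes of −0.04 in each. In TPM as deposited, 8 markers in each model had every knockout liver above every WT liver, which also held for 47.5% of all genes tested in YAPKO and 44.4% in YAPKO TAZHET. The opposite separation was seen for 1 marker in YAPKO and 0 in YAPKO TAZHET, beside 9.29% and 10% of all genes. All 10 markers passed the filter on low values in every comparison. With 3 livers against 3, an exact permutation test of a single gene cannot give a two-sided p below 0.1.

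**Figure D1:**
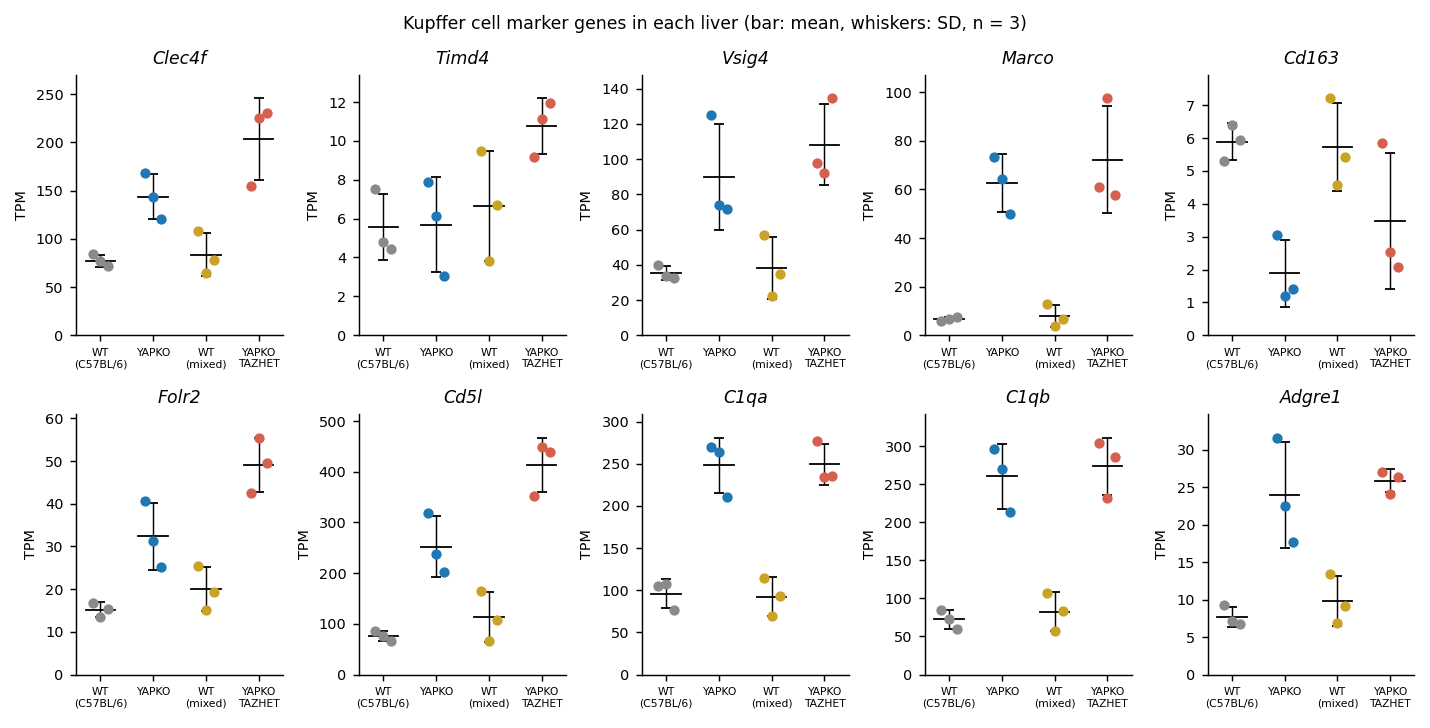
TPM of each marker (vertical axis, linear from 0) in every liver of the 4 groups, with the mean as a bar and the SD as whiskers (n = 3). Every knockout liver lies above every WT liver of its own model for 8 markers, Timd4 overlaps in both models, and Cd163 is the only marker whose mean is lower in both.

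Clec4f, a C-type lectin receptor found almost only on Kupffer cells in the mouse (ENSMUSG00000014542, chromosome 6 from 83644542 to 83656187, minus strand, GRCm38), was among the most abundant markers. In WT (C57BL/6) livers it measured 83.9, 77.1 and 71.4 TPM, and in YAPKO livers 168, 143 and 121 TPM. In the mixed background it measured 108, 64.4 and 77.9 TPM in WT livers and 155, 225 and 231 TPM in YAPKO TAZHET livers. Neither pair of groups overlapped, and the lowest knockout liver in each model was above the highest of its WT livers. The ratio of mean TPM was 1.86 in YAPKO and 2.44 in YAPKO TAZHET. On the scaled log2 scale Clec4f rose by 0.52 (SE 0.12, adjusted p = 0.0132) in YAPKO and by 0.97 (SE 0.22, adjusted p = 0.00979) in YAPKO TAZHET. The call in YAPKO was the least secure of the increases and was lost without WT liver LM193 (0.46, adjusted p = 0.0519).

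Timd4 encodes TIM-4, a phosphatidylserine receptor by which resident macrophages bind apoptotic cells (ENSMUSG00000055546, chromosome 11 from 46810800 to 46844332, plus strand). It measured 7.51, 4.78 and 4.43 TPM in WT (C57BL/6) livers and 7.90, 6.14 and 3.04 TPM in YAPKO livers, so that the YAPKO values spanned the whole WT range. In the mixed background WT livers measured 9.46, 3.82 and 6.69 TPM and YAPKO TAZHET livers 9.16, 11.2 and 11.96 TPM. The groups overlapped only through WT liver LM226, which exceeded the lowest YAPKO TAZHET liver. The log2 fold change was −0.32 in YAPKO (95% interval −0.99 to 0.35, adjusted p = 0.414) and 0.40 in YAPKO TAZHET (95% interval −0.19 to 0.99, adjusted p = 0.253). Both intervals leave room for a fall as well as for a rise.

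Vsig4 encodes CRIg, a complement receptor that clears C3-coated particles from the blood (ENSMUSG00000044206, chromosome X from 96247203 to 96293438, minus strand). Its WT (C57BL/6) levels were 40.0, 33.7 and 32.6 TPM, and its YAPKO levels 125, 73.9 and 71.6 TPM. Levels in the mixed background were 56.99, 22.4 and 34.9 TPM in WT and 97.8, 92.4 and 135 TPM in YAPKO TAZHET livers. Knockout and WT livers were separate in each model, with the highest YAPKO value in LM74. Vsig4 rose by 0.93 (SE 0.19, adjusted p = 0.00603) in YAPKO and by 1.24 (SE 0.29, adjusted p = 0.0111) in YAPKO TAZHET.

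Marco, a class A scavenger receptor with a collagen-like stem that binds bacteria and particles (ENSMUSG00000026390, chromosome 1 from 120474538 to 120505024, minus strand), had the largest increase of the 10. WT (C57BL/6) livers held 5.81, 6.78 and 7.41 TPM, and YAPKO livers held 73.5, 64.4 and 49.8 TPM. In the mixed background WT livers held 12.9, 4.00 and 6.52 TPM, and YAPKO TAZHET livers held 61.1, 97.5 and 57.9 TPM. The lowest knockout liver was thus several times the highest WT liver in both models, and mean TPM was 9.39-fold and 9.23-fold that of WT. Marco rose by 2.71 (SE 0.14, adjusted p = 8.56e-06) in YAPKO, where it ranked 104 of 11704 genes by increase. It rose by 2.84 (SE 0.34, adjusted p = 0.000492) in YAPKO TAZHET, where it ranked 83 of 11741. From a place near the bottom of the markers in WT livers, Marco moved above Folr2 and Adgre1 in both models.

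Cd163, the receptor that takes up haptoglobin-haemoglobin complexes (ENSMUSG00000008845, chromosome 6 from 124304656 to 124330527, plus strand), went the other way. It measured 5.29, 6.40 and 5.96 TPM in WT (C57BL/6) livers and 3.06, 1.21 and 1.40 TPM in YAPKO livers, without overlap. In the mixed background WT livers held 7.21, 4.58 and 5.41 TPM and YAPKO TAZHET livers 5.85, 2.53 and 2.07 TPM. YAPKO TAZHET liver LM225 lay inside the WT range and the other two lay below it. Cd163 fell by 1.58 (SE 0.20, adjusted p = 0.000747) in YAPKO and by 0.92 (SE 0.26, adjusted p = 0.0251) in YAPKO TAZHET. The second call was lost in 6 of 13 alternatives, among them leaving out WT liver LM226 (adjusted p = 0.084), WT liver LM230 (adjusted p = 0.0612), YAPKO TAZHET liver LM250 (adjusted p = 0.0825) or YAPKO TAZHET liver LM251 (adjusted p = 0.0858). It was also lost on TPM without scaling (−0.66, adjusted p = 0.102) and without a filter on low values (adjusted p = 0.0543).

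Folr2 encodes folate receptor beta, a surface protein of resident macrophages (ENSMUSG00000032725, chromosome 7 from 101839988 to 101857194, minus strand). It measured 16.8, 13.4 and 15.4 TPM in WT (C57BL/6) livers and 40.6, 31.3 and 25.2 TPM in YAPKO livers. In the mixed background the levels were 25.4, 15.2 and 19.3 TPM in WT and 42.6, 55.4 and 49.5 TPM in YAPKO TAZHET livers. The groups did not overlap in either model. Folr2 rose by 0.68 (SE 0.16, adjusted p = 0.0129) in YAPKO and by 0.97 (SE 0.18, adjusted p = 0.00389) in YAPKO TAZHET. The annotated gene overlaps Gm10602 and Gm45319 on the opposite strand, and whether counting used strand was not given in the sources used here, so reads of these genes may not be separated.

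The secreted markers were the most abundant in the knockout livers. Cd5l, a scavenger-receptor family protein released by tissue macrophages and also called AIM (ENSMUSG00000015854, chromosome 3 from 87357881 to 87371073, plus strand), measured 86.1, 75.4 and 66.8 TPM in WT (C57BL/6) and 318, 237 and 202 TPM in YAPKO livers. It measured 165, 67.0 and 107 TPM in WT (mixed) and 351, 450 and 439 TPM in YAPKO TAZHET livers, the highest level of any marker. Cd5l rose by 1.34 (SE 0.16, adjusted p = 0.000506) in YAPKO and by 1.63 (SE 0.28, adjusted p = 0.00258) in YAPKO TAZHET.

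C1qa and C1qb encode chains of C1q, the recognition subunit of the classical complement pathway, which macrophages supply to the plasma. They are neighbours on chromosome 4 (C1qa, ENSMUSG00000036887, from 136895917 to 136898803, and C1qb, ENSMUSG00000036905, from 136880129 to 136886187, both on the minus strand). C1qa measured 105, 107 and 76.3 TPM in WT (C57BL/6), 270, 264 and 210 TPM in YAPKO, 115, 68.9 and 93.6 TPM in WT (mixed) and 278, 234 and 236 TPM in YAPKO TAZHET livers. C1qb measured 84.3, 73.1 and 59.6 TPM in WT (C57BL/6), 297, 270 and 214 TPM in YAPKO, 107, 56.9 and 83.6 TPM in WT (mixed) and 304, 232 and 286 TPM in YAPKO TAZHET livers. For both chains every knockout liver was above every WT liver. C1qa rose by 1.01 (SE 0.16, adjusted p = 0.00184) in YAPKO and by 1.13 (SE 0.16, adjusted p = 0.00114) in YAPKO TAZHET. C1qb rose by 1.48 (SE 0.16, adjusted p = 0.000334) in YAPKO and by 1.43 (SE 0.20, adjusted p = 0.00109) in YAPKO TAZHET. C1qa TPM per C1qb TPM lay between 1.24 and 1.47 in WT (C57BL/6) and between 0.911 and 0.983 in YAPKO livers, and between 1.07 and 1.21 in WT (mixed) and between 0.826 and 1.01 in YAPKO TAZHET livers. The chain ratio was therefore lower in every knockout liver than in every WT liver of its model, a comparison chosen after the values were seen.

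Adgre1 encodes F4/80, the surface protein most often stained to find mouse macrophages (ENSMUSG00000004730, chromosome 17 from 57358691 to 57483527, plus strand). Its levels were 9.23, 7.11 and 6.68 TPM in WT (C57BL/6) and 31.6, 22.5 and 17.7 TPM in YAPKO livers. In the mixed background they were 13.4, 6.82 and 9.20 TPM in WT and 27.1, 24.1 and 26.3 TPM in YAPKO TAZHET livers. No knockout liver was as low as a WT liver of its model, and the 3 YAPKO TAZHET livers lay closer together than the 3 YAPKO livers. Adgre1 rose by 1.16 (SE 0.20, adjusted p = 0.00268) in YAPKO and by 1.06 (SE 0.19, adjusted p = 0.00301) in YAPKO TAZHET.

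**Figure D2:**
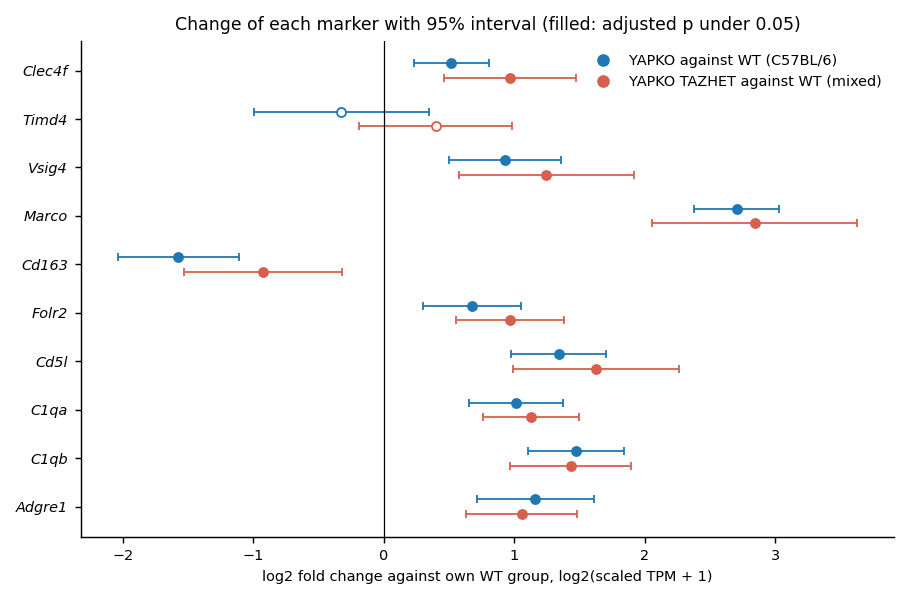
Log2 fold change of each marker against its own WT group (horizontal axis, difference of log2(scaled TPM + 1)) with 95% intervals, for YAPKO and YAPKO TAZHET livers. Filled points had an adjusted p below 0.05 in limma. Marco lies far to the right at 2.71 and 2.84, Cd163 alone lies to the left in both models, and the open points are Timd4.

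Compared with Clec4f in the same liver, the markers did not keep their WT proportions, which is a description chosen after the values were seen. Marco went from 0.0869 ± 0.0173 TPM per Clec4f TPM (SD, n = 3) in WT (C57BL/6) livers to 0.434 ± 0.0191 in YAPKO livers, and from 0.0886 ± 0.0292 in WT (mixed) to 0.360 ± 0.0963 in YAPKO TAZHET livers. Cd163 went from 0.0765 ± 0.0116 to 0.0128 ± 0.00499 and from 0.0692 ± 0.00215 to 0.0193 ± 0.0160 in the same order. Timd4 went from 0.0712 ± 0.0159 to 0.0384 ± 0.0116 and from 0.0776 ± 0.0159 to 0.0535 ± 0.00504. For these 3 genes the knockout and WT ratios did not overlap in either model (exact permutation p = 0.1 each, the smallest that 3 against 3 allows). Folr2 kept its proportion to Clec4f most closely, with overlapping ratios and mean ratios that were 1.13-fold and 1.02-fold those of WT. Cd5l per Clec4f was 1.78-fold higher in YAPKO and 1.57-fold higher in YAPKO TAZHET without overlap, while C1qa, C1qb, Vsig4 and Adgre1 per Clec4f were separate from WT in YAPKO and overlapped with WT in YAPKO TAZHET.

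**Figure D3:**
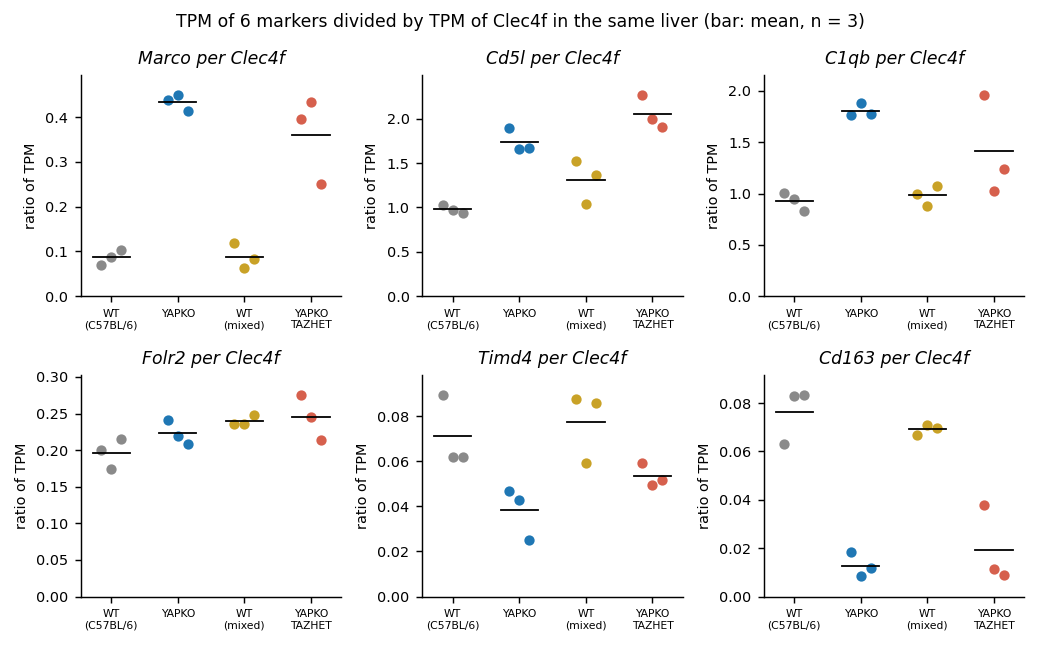
TPM of 6 markers divided by the TPM of Clec4f in the same liver (vertical axis, linear from 0), with the group mean as a bar (n = 3). Marco and Cd5l per Clec4f lie higher in both models, Timd4 and Cd163 lower, and Folr2 overlaps with WT throughout.

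The order of the markers by TPM, which is comparable between genes because it is scaled for length, is given for each group as a description. In WT (C57BL/6) livers C1qa, Clec4f, Cd5l and C1qb led with means from 96.1 to 72.4 TPM and overlapping ranges, and Vsig4 and Folr2 followed, each separate from its neighbours. Adgre1, Marco, Cd163 and Timd4 closed the order between 7.67 and 5.57 TPM and overlapped with their neighbours. In YAPKO livers C1qb, Cd5l and C1qa led between 260 and 248 TPM and could not be ordered by their ranges. Clec4f, Vsig4 and Marco then formed a run of overlapping neighbours from 144 to 62.6 TPM, above Folr2 at 32.4 and Adgre1 at 23.9 TPM, which overlapped. Timd4 at 5.69 and Cd163 at 1.89 TPM came last, and their ranges overlapped. In WT (mixed) livers the order began with Cd5l, C1qa, Clec4f and C1qb from 113 to 82.6 TPM and ended with Marco, Timd4 and Cd163 from 7.82 to 5.73 TPM. Between them, Vsig4 at 38.1 TPM overlapped with C1qb and with Folr2, and only Folr2 at 19.96 and Adgre1 at 9.79 TPM were separate neighbours. In YAPKO TAZHET livers Cd5l at 413 TPM stood clear of C1qb and C1qa, and only C1qb with C1qa and Vsig4 with Marco overlapped. There Timd4 at 10.8 TPM was separate from Cd163 at 3.48 TPM.

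The size of the responses was compared between the models as the difference of the 2 fold changes in 1 fit of all 12 livers. None of the 10 markers was called (0 of 10 also had an unadjusted p below 0.05 in limma), where 0.0576% of 12159 genes were called. The differences, YAPKO minus YAPKO TAZHET, ran from −0.73 for Timd4 to 0.10 for Adgre1 with a median of −0.30, beside 0.01 over all genes. For Cd163 the difference was −0.67 (95% interval −1.45 to 0.12), for Clec4f −0.46 (−1.06 to 0.14) and for Marco −0.14 (−1.05 to 0.76). The intervals are wide enough to hold differences of more than 1 on the log2 scale for several markers, so a like response of the models is not shown. Between the WT groups, 0 of the 10 markers were called in limma and 0 had an unadjusted p below 0.05, where 0.216% of 11126 genes were called. Their log2 differences, WT (mixed) minus WT (C57BL/6), ran from −0.13 for C1qa to 0.42 for Cd5l.

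The markers also varied together between livers of the same group, described first in TPM as deposited. In the WT (mixed) group LM226 was highest and LM227 lowest for all 10 markers, on the scaled scale too, and the summed TPM of the markers ranged from 314 to 620 in these 3 livers. In the YAPKO group LM74 was highest for all 10 and LM191 lowest for 9, with sums from 916 to 1334 TPM. The WT (C57BL/6) livers ranged from 347 to 444 TPM and the YAPKO TAZHET livers from 1331 to 1474 TPM, and in the latter no liver was highest for more than 4 markers. On the scaled log2 scale LM74 was highest for 8 markers, with LM189 highest for C1qa and C1qb, and in the YAPKO TAZHET group LM251 was highest for 6. After the group mean was taken from log2(scaled TPM + 1), Pearson's r over the 12 livers had a median of 0.78 (0.43 to 0.94) across the 36 pairs that leave out Cd163. Across the 9 pairs with Cd163 the median was 0.18 (−0.28 to 0.39). These correlations are a description over livers that share their library, their scaling and 8 free values after centring. LM74 had the largest scaling factor of its fit (1.22), and the part of tissue makeup and of scaling in the shared variation was not tested.

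**Figure D4:**
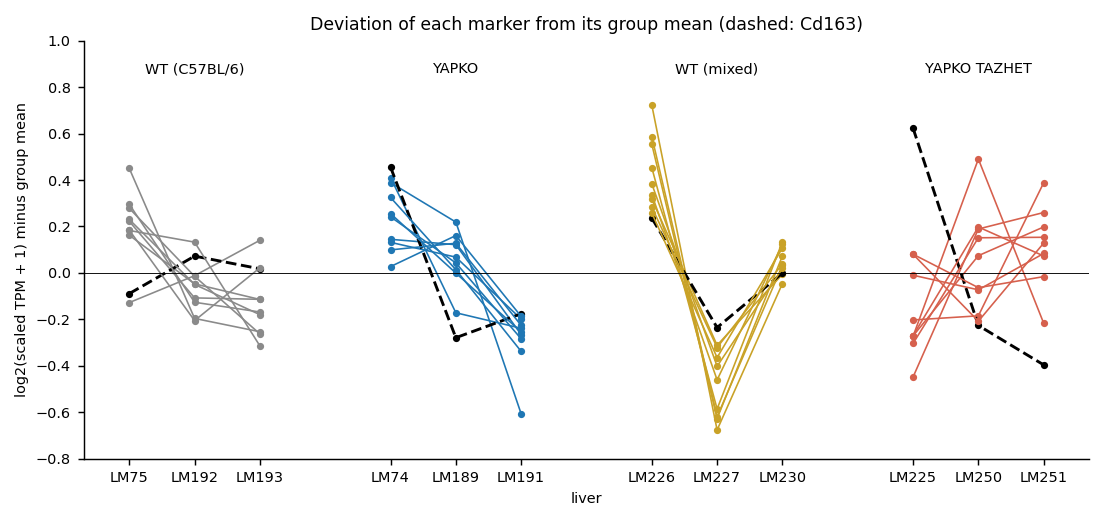
Deviation of each marker from its group mean on the log2(scaled TPM + 1) scale (vertical axis) in each of the 12 livers (horizontal axis), with 1 line per marker and Cd163 dashed. Lines run together in YAPKO and WT (mixed) livers, where LM74 and LM226 lie high, and Cd163 departs from the others in YAPKO TAZHET livers.

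The 10 markers were left out of the next ranking. Among 10168 other genes at 1 TPM or more in every liver, those whose centred values over the 12 livers were most like Clec4f were Svil (r = 0.97, rho = 0.95), Cfp (r = 0.94, rho = 0.89) and Ccl9 (r = 0.94, rho = 0.91). Cfp encodes properdin and Ccl9 a chemokine. Those most like Adgre1 were Tyrobp (r = 0.96, rho = 0.88), the signalling adaptor DAP12, then Rprd1b (r = 0.93, rho = 0.97) and Spi1 (r = 0.93, rho = 0.96), which encodes PU.1. Without the 2 livers farthest from the median, r stayed between 0.88 and 0.96 for these 6 genes. They were picked for a high r on these same livers, so a high r on part of them is no separate result. Among the markers left out of this ranking, Timd4 (r = 0.94) lay above Rprd1b and Spi1 in likeness to Adgre1.

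Promoter sequence is shown for Marco, which had the largest increase, for Vsig4, whose window held the PU.1 letters at 2 places, and for Timd4 and Cd163, which did not rise. RefSeq windows (GRCm38.p6) were found for 8 of the 10 markers, and C1qa and Adgre1 were not matched. The 250 bases before the start site are printed 5′ to 3′ on the strand of the gene, with matches in capitals. The letters searched on both strands were GAGGAA for PU.1, CATTCC for TEAD, TGGGAA for RBPJ, TGCTGA for a MAF recognition element arm and AGGTCA for a nuclear receptor arm, none of which overlapped another in the windows shown. Marco lies at chr1:120505025-120505274 and Vsig4 at chrX:96293439-96293688, both on the minus strand. Timd4 lies at chr11:46810549-46810798 and Cd163 at chr6:124304401-124304650, both on the plus strand.
Marco: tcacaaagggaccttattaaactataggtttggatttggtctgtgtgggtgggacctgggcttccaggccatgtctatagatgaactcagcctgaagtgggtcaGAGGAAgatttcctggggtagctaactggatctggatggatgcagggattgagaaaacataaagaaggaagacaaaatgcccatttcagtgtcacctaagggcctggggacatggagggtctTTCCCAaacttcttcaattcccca
Vsig4: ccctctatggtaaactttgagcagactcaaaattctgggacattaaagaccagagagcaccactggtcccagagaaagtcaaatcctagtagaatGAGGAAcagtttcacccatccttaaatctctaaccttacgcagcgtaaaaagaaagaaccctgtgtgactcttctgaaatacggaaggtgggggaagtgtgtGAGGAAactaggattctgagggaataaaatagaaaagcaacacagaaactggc
Timd4: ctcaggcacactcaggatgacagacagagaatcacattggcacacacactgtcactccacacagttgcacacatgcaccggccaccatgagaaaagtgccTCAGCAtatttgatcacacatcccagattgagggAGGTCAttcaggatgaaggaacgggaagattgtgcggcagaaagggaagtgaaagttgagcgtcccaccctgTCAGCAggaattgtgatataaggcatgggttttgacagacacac
Cd163: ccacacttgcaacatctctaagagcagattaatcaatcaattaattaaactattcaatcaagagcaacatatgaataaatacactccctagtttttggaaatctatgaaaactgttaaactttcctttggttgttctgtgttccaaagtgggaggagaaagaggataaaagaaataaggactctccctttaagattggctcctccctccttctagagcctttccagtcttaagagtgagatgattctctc
The PU.1 letters stand in a window of 4 of the 8 markers (Vsig4, Cd5l, Marco and C1qb), beside 23.3% of all 32851 windows of the same length. The MAF letters stand in 5 of 8 markers (16.1% of all windows), the RBPJ letters in 2 of 8 (21.6%), the nuclear receptor letters in 2 of 8 (14.0%) and the TEAD letters in 0 of 8 (12.6%). The units differ, since markers were counted over any of their windows (Folr2 has 2) and the shares count single windows of 27025 gene symbols. Marco holds the PU.1 and RBPJ letters, Vsig4 holds the PU.1 letters at 2 places, Timd4 holds the MAF letters at 2 places and the nuclear receptor letters, and the Cd163 window holds none of the 5. A match is a string of letters and no measured site, and its absence from these windows says nothing about the factor.

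Other genes that mark Kupffer cells were followed beside the 10 markers, among them the remaining C1q chain. Of 16 such genes, 8 rose and 1 fell in YAPKO (median 0.53), and 10 rose and 1 fell in YAPKO TAZHET (median 0.71). Of all genes tested, 18.8% rose and 17.9% fell in YAPKO, and 19.2% rose and 19% fell in YAPKO TAZHET. The same shares stand beside the lists below. Calls in these lists depend on the scaling too, which lowers knockout values against WT values. C1qc rose by 1.09 and 1.29, and Id3, a regulator of Kupffer cell development, by 1.08 and 0.75. The gene that fell was Nr1h3, which encodes LXR alpha and is also expressed by hepatocytes (−0.49, adjusted p = 0.00415, and −0.42, adjusted p = 0.00652). In TPM as deposited its knockout and WT livers overlapped in both models. Its mean went from 93.8 to 85.4 TPM in YAPKO and from 95.1 to 88.4 TPM in YAPKO TAZHET, so most of this fall came with the scaling. The iron exporter gene Slc40a1 was not called (0.31 and 0.34).

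Genes of the signals that maintain Kupffer cells, such as CSF1, TGF-beta, BMP and Notch, were called in both directions. Of 13 genes, 4 rose and 2 fell in each model, with medians of 0.10 and 0.09. Of all genes tested, 18.8% and 19.2% rose and 17.9% and 19% fell. A list of 13 genes is too short to tell its counts from these shares. The receptor genes Csf1r (0.94 and 1.06) and Tgfbr2 (1.89 and 1.69) and the ligand gene Tgfb1 (0.70 and 0.62) rose, and Smad4 was not called (0.05 and −0.06). Csf1r measured 17.5 to 22.6 TPM in WT (C57BL/6) and 41.6 to 61.2 TPM in YAPKO livers. Those that fell were Bmp10 and Gdf2 in YAPKO and Bmp10 and Il34 in YAPKO TAZHET.

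Genes of macrophages and myeloid cells in general rose beside the markers. Of 15 such genes 11 rose in YAPKO (median 1.14), and 12 rose in YAPKO TAZHET (median 1.37). Lyz2, lysozyme, rose by 1.68 and 1.37, the protease gene Ctss by 1.55 and 1.503 and the endotoxin co-receptor gene Cd14 by 4.39 and 4.46. Cd14 thus rose far more than the list median, and which cells of the liver held its RNA was not tested.

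Markers of other cells that a whole liver can hold were higher as well in part. Of 12 monocyte genes 9 were tested in each model, of which 7 rose in YAPKO and 5 in YAPKO TAZHET, and their summed level was 351 to 367 TPM in WT (C57BL/6), 347 to 494 in YAPKO, 357 to 492 in WT (mixed) and 370 to 566 in YAPKO TAZHET livers. The sum is mostly Fn1, which hepatocytes also make and which was not called (−0.22 and −0.42). Itgam, Itgax, Ccr2 and Cx3cr1, and Chil3 in YAPKO, were below 1 TPM in every WT liver. They passed the filter on low values only through knockout livers, so they could only be found higher there. The counts of 7 and 5 include these genes. The fractalkine receptor gene Cx3cr1 rose by 2.64 and 1.97 and Ly6c2 by 0.71 in YAPKO, while Ly6c2 in YAPKO TAZHET was not called (0.63, adjusted p = 0.21). The genes known from lipid-associated macrophages rose for 9 of 10 in each model (medians 2.97 and 2.89), with Cd9 at 3.26 and 3.28, Lpl at 4.40 and 4.29 and Spp1 at 3.04 and 1.33. Their sums were 143 to 174 TPM in WT (C57BL/6), 1006 to 1624 in YAPKO, 71.7 to 185 in WT (mixed) and 876 to 984 in YAPKO TAZHET livers. Of these genes, Trem2, Gpnmb and Mmp12 also passed the filter only through knockout livers. Which cells of the liver held the RNA of the lipid-associated macrophage genes was not tested. The part of monocyte-derived cells in the levels of the 10 markers was not tested either.

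Neutrophil genes were low, with 4 of 8 tested and 3 higher in YAPKO and 2 tested and 1 higher in YAPKO TAZHET. Of the genes called higher, Retnlg in YAPKO and S100a8 in YAPKO TAZHET passed the filter on low values only through knockout livers. Their sums were 6.91 to 15.8 TPM in WT (C57BL/6), 47.6 to 58.6 in YAPKO, 4.64 to 6.68 in WT (mixed) and 9.62 to 52.5 in YAPKO TAZHET livers, and Ly6g was at 0 in all livers but a single YAPKO liver. Of 15 lymphocyte and dendritic cell genes 4 were tested in YAPKO, with 0 called in limma, and 5 in YAPKO TAZHET, with only Cd3g higher. Cd3g was below 1 TPM in every WT (mixed) liver and passed the filter there only through knockout livers. Sinusoidal endothelial genes, which mark the neighbours of Kupffer cells, fell for 5 of 12 in each model and rose for 0 (medians −0.38 and −0.44), with Dnase1l3 at −0.87 and −0.91. In TPM as deposited, Oit3, Kdr and Dnase1l3 were lower in every knockout liver of both models, and Bmp2 in YAPKO TAZHET. The other called genes, Clec4g and Bmp2 in YAPKO and Lyve1 in YAPKO TAZHET, overlapped with WT. Stab1 and Pecam1 in YAPKO and Mrc1 in YAPKO TAZHET had every knockout liver above every WT liver. Hepatocyte genes fell for 3 of 7 in YAPKO and 2 of 7 in YAPKO TAZHET, with Ttr at −1.13 and −0.93, where 17.9% and 19% of all genes tested fell. Of the bile duct cell genes, of which 4 of 6 were tested, Sox9 rose in both models and Epcam fell in YAPKO TAZHET.

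**Figure D5:**
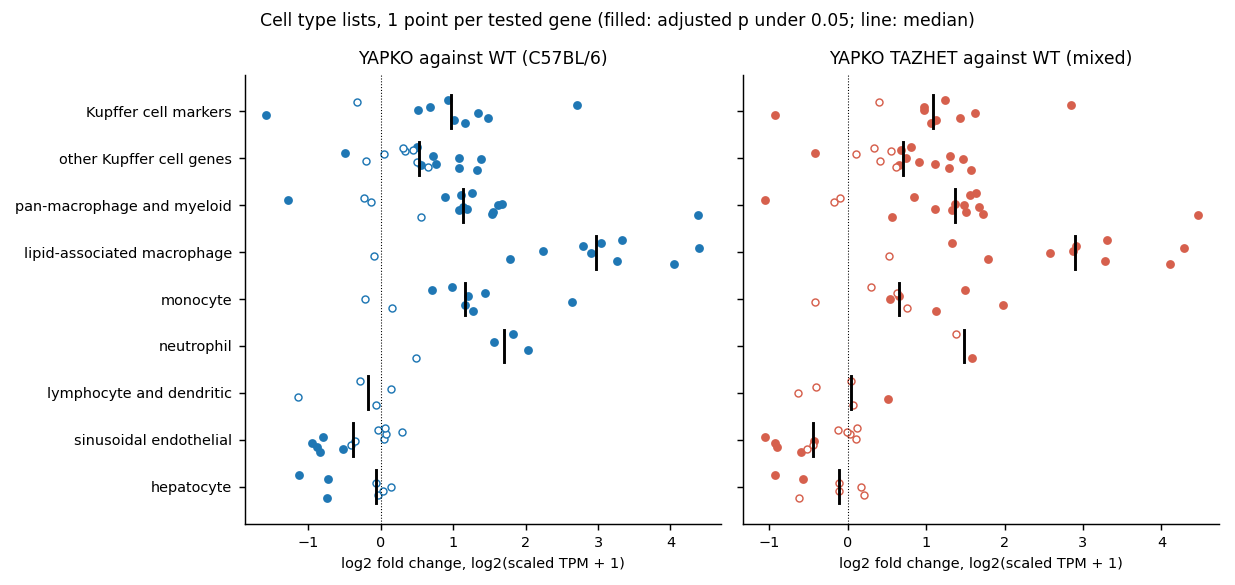
Log2 fold change (horizontal axis, difference of log2(scaled TPM + 1)) of every tested gene of 9 cell type lists in each model, with 1 point per gene, filled where the adjusted p was below 0.05, and the list median as a line. The Kupffer cell markers have medians of 0.97 and 1.09, lipid-associated macrophage genes lie higher at 2.97 and 2.89, and sinusoidal endothelial genes lie lower at −0.38 and −0.44.

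Partners of the markers were followed by role. Haptoglobin and haemopexin, plasma proteins of the hepatocyte that bind free haemoglobin and haem, rose while the receptor gene Cd163 fell: Hp went from a mean of 2563 to 12092 TPM in YAPKO (1.91) and from 2103 to 10409 TPM in YAPKO TAZHET (1.99), and Hpx rose by 1.35 and 1.58. Of 11 genes of haem and iron handling 6 rose and 2 fell in YAPKO and 5 rose and 1 fell in YAPKO TAZHET (medians 0.37 and 0.34), and Hmox1, which breaks down haem, rose by 1.39 and 1.47. Beside this and the next 2 lists, 18.8% and 19.2% of all genes tested rose and 17.9% and 19% fell. Some genes, among them Hp, Gas6, Mfge8, C1qc and Hmox1, stand in more than 1 list, so the counts of the lists are not independent. Ftl1 has near-identical copies and is uncertain, since YAPKO TAZHET livers LM225 and LM251 held 10.1 and 9.66 TPM and LM250 held 5616 TPM. Of 10 ligand and C1 partner genes 6 rose in YAPKO (median 0.52), and 4 rose and 1, Gas6, fell in YAPKO TAZHET (median 0.30). C3, whose fragments CRIg binds, rose by 0.62 and 0.81, and the C1 inhibitor gene Serping1 was not called (−0.08 and −0.22). Mean Serping1 TPM as deposited was higher than in WT in both models. Of 13 tested genes for the uptake of dying cells, the task of TIM-4, 6 rose in YAPKO (median 0.29) and 5 rose and 1 fell in YAPKO TAZHET (median 0.07). Elmo1, counted as higher in each model, passed the filter on low values only through knockout livers. Mfge8, which bridges phosphatidylserine to integrins, rose by 3.95 and 3.76, while Lrp1 (−0.06 and −0.06) and Rac1 (0.02 and 0.07) were not called. In TPM as deposited, Rac1 was higher in every knockout liver than in every WT liver of its model.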

How the data were processed

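RNA of whole liver was sequenced as paired reads, and the authors aligned it to GRCm38.p6 and quantified genes in CLC Genomics Workbench 20.0.3. They deposited TPM for each liver in 2 tables, 1 for each model with its WT group. TPM hold no read depth, so no count model, interval of counts or detection floor could be used. The tables also hold the authors' own comparisons (maximum group means, fold changes, p-values, FDR and Bonferroni values), which were not used. Groups came from the sample labels. Whether the WT littermates came from separate litters was not given, so p-values measure the spread between these livers.

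TPM were scaled by an unweighted trimmed mean of log ratios (30% of ratios and 5% of levels trimmed) and tested as log2(TPM + 1) with limma 3.58.1 in R 4.3.3 (moderated test with a trend, two-sided, Benjamini-Hochberg, threshold 0.05) over genes at 1 TPM or more in at least 3 livers of the fit. Exact permutation tests used scipy 1.17.1 in Python 3.11.15. The fits were also run on simulated data in which far fewer genes changed than were called here in each knockout comparison. More genes changed there than were called between the models or between the WT groups. That run cannot judge the scaling of these livers. Alternatives were a pseudocount of 0.1, a filter at 5 TPM or none, quantile normalization or no scaling, robust shrinkage, all 12 livers in 1 fit and each liver left out. All 10 markers are named with every liver, and of each of 13 further lists at most 4 genes with the highest mean TPM, besides the genes that fell. The members, lists, ratios and motifs were chosen with earlier results of these data known. Genes that fell, the C1q chain ratio, Hmox1, Sox9, Epcam, Cd3g, Bmp10, Gdf2, Il34 and Ly6g were named after their values were seen. The result of 1 gene of the general macrophage list is not reported here.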

Additional observations from a re-analysis of the deposited data

How the results depend on the processing

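The count of called markers stayed within 1.5 times the reported count under every alternative run. Of 130 marker values recomputed in YAPKO, 128 kept direction and call and 2 lost the call, both of Clec4f (adjusted p in limma 0.0554 with all 12 livers in 1 fit, and 0.0519 without WT liver LM193). In YAPKO TAZHET 124 kept both and 6 lost the call, all of Cd163, with log2 fold changes from −1.23 to −0.66 over its alternatives. Timd4 was called in no alternative, with values from −0.51 to −0.02 in YAPKO and from 0.11 to 0.68 in YAPKO TAZHET. Without scaling the median over all genes moved to 0.28 in YAPKO and 0.24 in YAPKO TAZHET, and all markers kept their direction. Of 180 differences between the models, 168 kept their sign and 12, none of them called, changed it when a liver was left out. Over the livers left out, the difference ranged from −0.57 to 0.018 for Cd5l, from −0.51 to 0.20 for Marco, from −0.28 to 0.057 for C1qa, from −0.13 to 0.26 for C1qb and from −0.093 to 0.30 for Adgre1, and the cause was not tested. No paired analysis was possible because the labels do not give the litter of each liver. The paper states a nominal sequencing depth, but the reads behind each value are unknown. How precisely the low markers Cd163 and Timd4 were measured is therefore known only from the spread of 3 livers.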
